A study of Mus musculus with 12 samples.

Results

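Integrins and laminins, the receptors and ligands that fasten heart cells to their basement membrane, were followed in whole hearts of mice carrying changes in Lemd2, the gene of an inner nuclear membrane protein. The genes were taken by symbol, as all integrin alpha and beta genes (Itga and Itgb) and all laminin chains (Lama, Lamb and Lamc), leaving out Itgb1bp1, Itgb3bp and Itgbl1. This gave 39 of the 24062 genes counted: 18 integrin alpha subunits, 9 integrin beta subunits, 11 laminin chains and Itgb1bp2, which the symbol rule takes in although it encodes melusin, a muscle protein that binds the tail of integrin beta1, and no subunit. Polyadenylated RNA was sequenced from 12 hearts, 3 in each of 4 groups. The adult groups were 2 months old, either Lemd2 WT or KI/KI, homozygous in every cell of the body for the c.T38>G knockin allele. The neonatal groups were taken at P1 (postnatal day 1). Their controls carried the Lemd2-floxed allele, in which loxP sites flank the first exon, and the cKO hearts had in addition lost Lemd2 in the cells where the Myh6 promoter drives Cre, that is in cardiomyocytes. Other heart cells of the cKO kept the gene. The labels give neither sex nor litter for any mouse, and nothing in them says that same-numbered hearts belong together.

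An integrin is a pair of 1 alpha and 1 beta subunit, and the pair decides which matrix protein the cell grips. Beta1 joins with the laminin-binding alpha3, alpha6 and alpha7, with the collagen-binding alpha1, alpha2, alpha10 and alpha11 and with the fibronectin receptor alpha5, while alphav pairs with several beta subunits and reads the RGD motif of fibronectin and vitronectin. A laminin is a trimer of an alpha, a beta and a gamma chain that polymerises into the basement membrane, and laminins with the alpha2 chain surround striated muscle fibres while those with alpha4 and alpha5 lie under vessels. In cardiomyocytes some of these integrins are part of the costamere, which links the sarcomere through talin, vinculin and integrin-linked kinase to the matrix outside.

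The libraries held 37063669 to 44789753 counts, so that 3 counts correspond to 0.0670 to 0.0809 CPM, the count relative to the library total, taken here as the floor of detection for counting error only. Levels are CPM scaled by the trimmed mean of M-values (TMM) over all 12 libraries, and comparisons between genes use CPM per kilobase of exon. Lemd2 itself read 31.9, 34.7 and 33.0 CPM in WT, 25.6, 25.1 and 24.8 in KI/KI, 24.4, 25.1 and 25.3 in floxed, and 6.64, 13.1 and 11.3 CPM in cKO hearts. The 8 cardiomyocyte markers were abundant in every library, with summed levels of 40400 to 91860 CPM. KI/KI 5 stood apart with 4463 CPM of summed fibroblast markers, against 2446 and 2880 in the other KI/KI hearts, and cKO 6 with 1085 CPM of summed cell-cycle genes, against 453 and 544 in the other cKO hearts. The library cKO 4 held 4 counts of 4 Y-linked genes where every other library held 9162 to 14996. Transcripts of lung epithelium ranged from 0.505 CPM in KI/KI 6 to 101 CPM in WT 3.

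Beta1, the common partner, led the family in both control groups. Itgb1 stood at 219 ± 15.5 CPM per kilobase in adult WT and at 316 ± 16.9 in P1 floxed hearts (mean ± SD, n = 3), above every other member and not overlapping the next. In adult WT hearts it was followed by Itgb1bp2 at 162, Lamb2 at 111, Itga7 at 67.5 and Lamc1 at 64.7 CPM per kilobase, where Itga7 and Lamc1 overlapped. In P1 floxed hearts the order was Lamc1 at 109, Itgb1bp2 at 97.4, Lamb1 at 91.5 and Lama4 at 68.0 CPM per kilobase. Itgb1bp2 overlapped both Lamc1 and Lamb1, which did not overlap each other. Thus laminin beta2 and integrin alpha7 stood high in the adult order, and laminin beta1 and alpha4 in the neonatal one. Lamb1, Lama4, Itgb5, Lama2 and Itga6 lay between 33.3 and 36.9 CPM per kilobase in adult WT hearts and could not be ordered, each overlapping the next. The lowest members in both orders were the leukocyte subunit Itgb2l and the embryonic chain Lama1. Itgb2l had 0 to 2 counts in each adult library, below the floor, and 3 to 16 in each P1 library, and it passed the filter on low counts in no comparison. Lama1 had 1 to 7 counts in adult and 29 to 46 in P1 libraries.

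**Figure D1:**
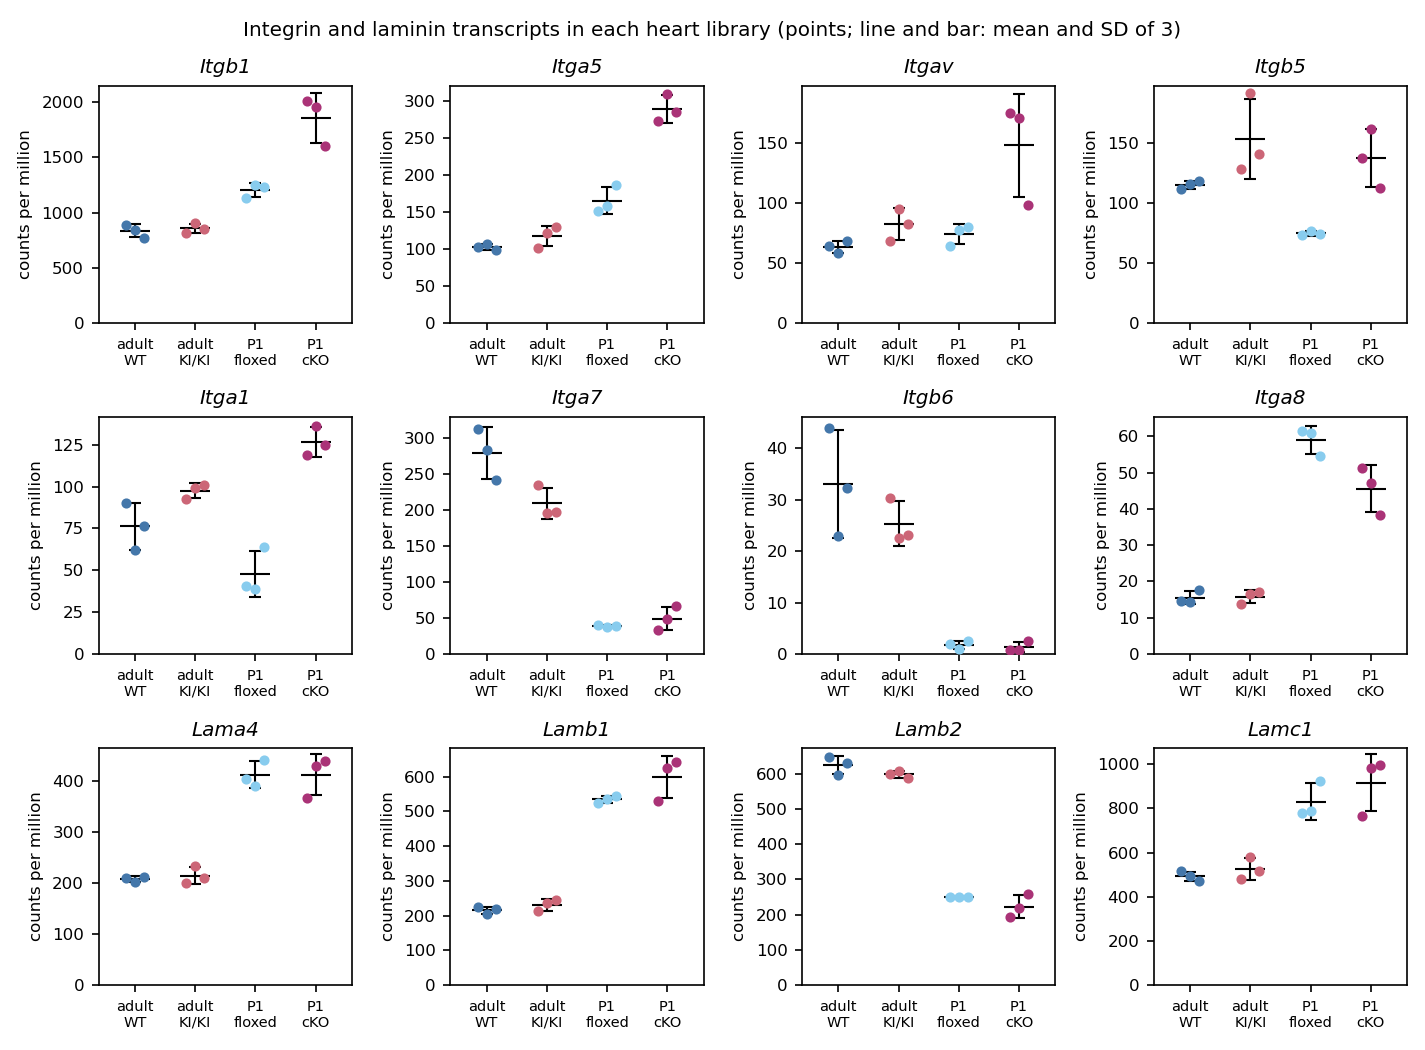
Level of 12 members in each library, in CPM on a linear axis from 0, for adult WT, adult KI/KI, P1 floxed and P1 cKO hearts. Points are libraries, the line and bar the mean and SD of 3. Itga1, Itga5, Itgav, Itgb1 and Itgb5 lay higher in every cKO than in every floxed heart, and Itga7 and Lamb2 higher in every adult than in every P1 heart.

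The first comparison set P1 cKO against P1 floxed hearts. The cKO was made with a Myh6-Cre transgene, and the study describes no control that carries it alone. Loss of Lemd2 and the transgene therefore cannot be told apart. In cKO hearts 8 of the 38 members tested were higher than in floxed hearts and 2 were lower, by edgeR's quasi-likelihood test at an adjusted p under 0.05, against 9.32% of all 15317 genes tested called higher and 7.57% called lower. Of the 8 higher genes, 7 were integrin subunits, among them Itga5, Itgav and Itgb5 of the fibronectin and RGD receptors, with the common partner Itgb1. Among the 4 RGD-binding alpha subunits 2 were called higher and 0 lower, beside the shares of all genes just given. The other 2, Itga8 and Itga2b, had a negative log2 fold change. The beta subunits Itgb3 and Itgb6 did not pass (adjusted p = 0.284 and 0.592). The 2 lower genes, Lama3 and Lamb3, were laminin chains. The other 28 members tested did not pass. The median log2 fold change was 0.05 over the members, against 0.00 over all genes tested. It was 0.21 over the 26 integrin subunits tested and -0.07 over the 11 laminin chains. With a fold change above 2 added to the rule, 3 members were higher and 0 lower, against 2.85% and 1.78% of all genes. DESeq2 called the same 10 members with Itga11 higher and Itga8 lower in addition, 9 higher and 3 lower, against 13.6% and 11.0% of all genes with an adjusted p.

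Itga1, the alpha1 subunit of a collagen receptor found on fibroblasts, smooth muscle and vessels, changed by the largest fold. It measured 40.9, 38.6 and 63.8 CPM in the floxed hearts and 119, 136 and 125 CPM in the cKO hearts, so that the lowest cKO library stood well above the highest floxed one. The log2 fold change was 1.41 ± 0.19 (SE), a 2.65-fold rise, with an adjusted p of 0.00814. Itga11, another collagen receptor subunit, of fibroblasts, read 1.77, 2.03 and 2.63 CPM against 3.14, 7.78 and 3.07 without overlap but did not pass in edgeR (adjusted p = 0.106), although it did in DESeq2 (adjusted p = 0.0322). Itga2 and Itga10 overlapped between the groups. Because Itga1 gained, its share of the collagen-binding alpha transcripts per kilobase was 60.7% ± 6.98 in floxed and 80.8% ± 2.35 in cKO hearts (mean ± SD, n = 3, exact two-sided permutation p = 0.1, the smallest that 3 against 3 can give).

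Of the subunits that bind the RGD motif, Itga5, whose product with beta1 is the main fibronectin receptor, had the smallest p of all members. Its levels were 151, 159 and 186 CPM in floxed and 273, 310 and 285 CPM in cKO hearts. The groups lay far apart, with a log2 fold change of 0.81 ± 0.10 and an adjusted p of 0.00675. Itgav, the partner that also serves latent TGF-beta activation, read 64.2, 77.2 and 80.0 CPM in floxed and 175, 170 and 98.3 CPM in cKO hearts. The library cKO 6 was much closer to the floxed hearts than cKO 4 and cKO 5 were. The difference was 2.01-fold (log2 1.01 ± 0.23, adjusted p = 0.0288), a call lost in 5 of the 6 fits that left out a library and with the level of Y-linked genes as a covariate. Itgb5, a beta partner of alphav, was tight in floxed hearts at 73.4, 77.0 and 74.2 CPM and stood at 138, 162 and 113 CPM in cKO hearts, 1.84-fold higher (adjusted p = 0.0101). Itgb1, the most abundant member, read 1131, 1252 and 1231 CPM against 2014, 1957 and 1600. All cKO hearts exceeded all floxed hearts, and the fold was 1.54 (log2 0.63 ± 0.12, adjusted p = 0.0180). Itga9, a receptor subunit for tenascin-C and osteopontin, read 104, 111 and 147 CPM in floxed and 160, 230 and 240 CPM in cKO hearts. The lowest cKO library lay just above the highest floxed one, and the fold was 1.74 (adjusted p = 0.0297). Itga8, the nephronectin receptor of smooth muscle and fibroblasts, was 59.1 ± 3.83 CPM in floxed and 45.6 ± 6.52 in cKO hearts without overlap and did not pass in edgeR (adjusted p = 0.0898), although it did in DESeq2 (adjusted p = 0.0475).

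The sequence before the transcription start is printed for 5 matrix-binding subunits that rose together in cKO hearts, to show what they carry there. Itga9, which rose as well, is not printed because 35 bases of its window are annotated exon. Each is the 250 bases upstream of the RefSeq start in GRCm38.p6, written 5′ to 3′ along the gene's strand, and holds no annotated exon (GENCODE vM21). Capitals mark a match on either strand to the GC box GGGCGG or to the TEAD motif GGAATG. The AP-1 motif TGANTCA and the TATA motif TATAAA were searched as well and had no match in these 5 windows. No capital letter belongs to more than 1 motif. The windows are chr13:115101965-115102214 on the minus strand for Itga1, chr15:103366792-103367041 on the minus strand for Itga5, chr2:83724147-83724396 on the plus strand for Itgav, chr8:128685404-128685653 on the plus strand for Itgb1 and chr16:33829415-33829664 on the plus strand for Itgb5.
Itga1: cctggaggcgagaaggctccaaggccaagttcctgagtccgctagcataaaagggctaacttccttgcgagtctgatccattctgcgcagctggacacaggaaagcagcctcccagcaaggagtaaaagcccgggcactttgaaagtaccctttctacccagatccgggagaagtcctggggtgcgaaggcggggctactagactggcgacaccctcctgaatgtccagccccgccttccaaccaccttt
Itga5: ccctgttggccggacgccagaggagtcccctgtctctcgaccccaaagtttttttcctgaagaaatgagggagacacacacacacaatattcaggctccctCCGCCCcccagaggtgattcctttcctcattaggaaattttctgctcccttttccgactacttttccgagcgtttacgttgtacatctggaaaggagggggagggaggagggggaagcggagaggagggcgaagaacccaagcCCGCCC
Itgav: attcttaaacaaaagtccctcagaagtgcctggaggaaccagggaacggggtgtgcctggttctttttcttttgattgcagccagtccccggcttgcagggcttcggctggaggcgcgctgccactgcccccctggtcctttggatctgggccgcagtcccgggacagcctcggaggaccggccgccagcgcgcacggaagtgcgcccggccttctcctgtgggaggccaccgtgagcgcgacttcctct
Itgb1: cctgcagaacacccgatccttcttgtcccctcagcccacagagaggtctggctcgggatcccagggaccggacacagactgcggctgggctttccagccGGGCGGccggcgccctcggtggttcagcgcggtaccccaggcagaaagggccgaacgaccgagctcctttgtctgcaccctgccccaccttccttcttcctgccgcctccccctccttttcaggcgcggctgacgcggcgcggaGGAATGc
Itgb5: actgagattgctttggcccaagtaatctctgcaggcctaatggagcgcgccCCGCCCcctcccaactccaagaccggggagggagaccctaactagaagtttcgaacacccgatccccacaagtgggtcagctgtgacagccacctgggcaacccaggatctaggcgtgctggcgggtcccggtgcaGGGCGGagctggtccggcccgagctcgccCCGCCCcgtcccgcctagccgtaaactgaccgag

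The GC box was present in Itga5 at 149 and 6 bases before the start, in Itgb1 at 151 and in Itgb5 at 199, 63 and 34, and had no match in the windows of Itga1 and Itgav. The TEAD motif matched once, in Itgb1, beginning 7 bases before the start. The table held 27 windows for 24 of the 39 members. Of these, 9 held the GC box, 3 the TEAD motif, 1 the AP-1 motif and 0 the TATA motif. Among all 32851 windows of this length 32.7% held the GC box, 12.6% the TEAD motif, 6.75% the AP-1 motif and 12.4% the TATA motif. The matches describe letters in the window and no binding was measured.

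For the laminins of the P1 heart, 11 chains gave 1 higher and 2 lower calls in the cKO comparison. The 26 integrin subunits gave 7 and 0. Which family moved more was not tested. The chains of the main basement membrane trimers did not pass: Lama4 was 411 ± 26.6 CPM in floxed and 411 ± 39.8 in cKO hearts (log2 fold change 0.00 ± 0.09), Lamb1 535 ± 10.7 and 599 ± 60.7, and Lamc1 831 ± 82.1 and 916 ± 129. Lama2 did not pass either, at 264 ± 28.0 and 223 ± 22.1 CPM with overlap (log2 -0.25 ± 0.11, adjusted p = 0.147). Its share of alpha chain transcripts per kilobase was 25.35% ± 1.54 in floxed and 22.45% ± 1.16 in cKO hearts (exact permutation p = 0.1). Lama3 and Lamb3, chains of epithelial basement membranes, passed at low levels. Lamb3 read 7.25, 10.3 and 8.64 CPM in floxed and fell to 4.44, 5.42 and 4.06 CPM in cKO hearts (log2 -0.91 ± 0.18, adjusted p = 0.0215). Lama3 read 8.75, 8.05 and 8.04 CPM in floxed and 4.34, 5.01 and 6.43 CPM in cKO hearts, again without overlap (log2 -0.66 ± 0.16, adjusted p = 0.0362). Lamb1 made up 66.5% ± 0.458 of the beta chain transcripts per kilobase in floxed and 71.8% ± 1.34 in cKO hearts (exact permutation p = 0.1). The laminin-binding receptor subunits did not pass: Itga6 read 159.5, 178 and 183 CPM in floxed and 187, 183 and 198 in cKO hearts, and Itga7 was 39.1 ± 1.04 and 49.4 ± 16.7 CPM, where the cKO hearts read 33.3, 48.3 and 66.6 CPM and lay on both sides of the floxed ones. Melusin (Itgb1bp2) read 114, 113 and 157 CPM in floxed and 78.2, 109 and 100.3 CPM in cKO hearts, lower without overlap, and did not pass (adjusted p = 0.122).

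Among the 7 leukocyte integrins tested 1 was called higher and 0 lower, where 9.32% and 7.57% of all genes were. Itgb2, the beta subunit that leukocytes share, read 3.54, 2.64 and 3.01 CPM in floxed and 6.60, 5.28 and 4.76 CPM in cKO hearts, 1.82-fold higher (adjusted p = 0.0314). Its macrophage partner Itgam read 5.39, 6.35 and 4.14 CPM in floxed and 14.8, 9.61 and 4.69 in cKO hearts with overlap (adjusted p = 0.168), and 70.0% of its exon bases are shared with the overlapping gene model Gm49368 on the same strand, so that its counts are uncertain. Of the 7 macrophage markers counted, 3 were called higher in cKO hearts, and their summed level was 94.5 to 109 CPM in floxed and 111 to 221 CPM in cKO hearts, with none at 0. Their part in the Itgb2 result was not tested.

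Other markers moved with genotype as well. In cKO hearts 4 of 8 cardiomyocyte markers were lower (summed level 47460 to 55120 CPM in floxed and 40400 to 43820 in cKO hearts), and markers were higher for 2 of 8 fibroblast (5144 to 5957 against 6170 to 7488 CPM), 2 of 8 endothelial (1186 to 1296 against 1377 to 1693 CPM), 4 of 7 mural and smooth muscle (1478 to 1865 against 1950 to 3147 CPM, with 1 lower) and 3 of 6 cell-cycle genes (280 to 393 against 453 to 1085 CPM). All 6 Schwann and neuronal markers had a negative log2 fold change and 2 were called lower (20.4 to 55.5 against 11.9 to 22.5 CPM). Of the 5 skeletal muscle markers tested 1 was higher and 1 lower (883 to 1028 against 558 to 670 CPM, all 7 markers), and of the 2 T cell markers tested 1 was higher (1.08 to 2.18 against 1.77 to 3.29 CPM, all 6 markers). None of these markers was at 0 in either group. Their part in the integrin results was not tested, and in whole-heart RNA more cells of a type and more RNA per cell cannot be told apart.

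Without overlap between the groups, 11 members were higher in cKO hearts and 4 lower, where 20.1% and 19.3% of all genes tested were. The calls depended on single libraries, although every called member kept its direction in every fit. Without floxed 1 there were 0 calls among the members (160 over all genes against 2587), with adjusted p of 0.0512 for Itga5 and 0.0557 for Itga1. There were 3 higher and 0 lower without floxed 2, 6 and 0 without floxed 3, 6 and 1 without cKO 4, 4 and 0 without cKO 5, and 9 and 3 without cKO 6. Itga1, Itga5 and Itgb5 were called in 5 of the 6 fits that left out a library, Itgb1 and Itga9 in 3, Lamb3 in 2, and Itgav, Itgb2 and Lama3 in 1, the fit without cKO 6. With the level of Y-linked genes as a covariate 6 members stayed higher, among them Itga1, Itga5, Itga9, Itgb1 and Itgb5, and 0 were lower.

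The second comparison asked whether the knockin allele changed the same gene families in the adult heart. No member passed: 0 of 37 tested were higher and 0 lower, where 0% of all 14592 genes tested were called in either direction and the smallest adjusted p over all genes was 0.101. At an unadjusted p under 0.05, 5 members were higher and 3 lower, against 8.92% and 7.28% of all genes. DESeq2 called 0 members higher and 2 lower, Lamb3 and Itga7, against 2.10% and 1.46% of all genes with an adjusted p. The median log2 fold change was 0.20 over the members and 0.00 over all genes tested, with 0.28 over the 26 integrin subunits and 0.04 over the 10 laminin chains tested.

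Of the 6 members with the smallest p, 3 lay lower in KI/KI hearts. Itga7, the alpha subunit of the main laminin receptor of mature striated muscle, read 313, 284 and 242 CPM in WT hearts, against 235, 196 and 198 CPM in KI/KI. The groups did not overlap, although WT 3 and KI/KI 4 nearly met. The log2 fold change was -0.41 ± 0.11, with an adjusted p of 0.233 in edgeR and 0.0378 in DESeq2. Its share of the laminin-binding alpha transcripts per kilobase was 64.1% ± 4.48 in WT hearts, against 53.0% ± 5.86 in KI/KI (exact permutation p = 0.1). The 8 cardiomyocyte markers lay lower with it, all with a negative log2 fold change (median -0.28) and 0 called, and summed to 82170 to 91860 CPM in WT and 60330 to 81840 in KI/KI hearts with none at 0. Their part in the Itga7 values was not tested. Lamb3 read 22.5, 26.7 and 21.3 CPM in WT hearts, against 17.9, 11.1 and 14.3 CPM in KI/KI without overlap (log2 -0.70 ± 0.18, adjusted p = 0.217 in edgeR and 0.0163 in DESeq2). Lama5, the alpha chain of vascular basement membranes, read 227, 231 and 248 CPM in WT hearts, against 215, 165 and 174 CPM in KI/KI (log2 -0.34 ± 0.11, adjusted p = 0.250). These 3 were the members that lay lower in every KI/KI heart, where 10.8% of all genes did.

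In the other direction, Itga1, Itgav, Itgb2 and Itgb5 lay higher in every KI/KI than in every WT heart, where 11.2% of all genes did, and none passed. Itgb2 read 6.96, 6.25 and 8.73 CPM in WT hearts, against 10.4, 12.9 and 9.88 CPM in KI/KI (log2 0.60 ± 0.17, adjusted p = 0.236). Itgb5 read 112, 116 and 118 CPM in WT hearts, against 129, 192 and 141 CPM in KI/KI, and Itgav 64.2, 58.2 and 67.9 CPM against 68.5, 95.1 and 82.5. In both, KI/KI 5 was the highest library and KI/KI 4 stood close to WT. The log2 fold change was 0.42 ± 0.15 for Itgb5 (adjusted p = 0.272) and 0.38 ± 0.13 for Itgav (adjusted p = 0.264). Itgb1 overlapped, at 834 ± 59.0 CPM in WT hearts, against 858 ± 43.3 in KI/KI. The summed macrophage markers were 185 to 266 CPM in WT hearts, against 280 to 311 in KI/KI with none at 0. In edgeR 4 of 7 had an unadjusted p under 0.05 and 0 were called. DESeq2 called 2 of the 7 higher, where it called 2.10% of all genes with an adjusted p higher. All 8 fibroblast markers had a positive log2 fold change (2041 to 2465 CPM summed in WT and 2446 to 4463 in KI/KI hearts), with 2 of 8 at an unadjusted p under 0.05 and 0 called. The part of these markers in the Itgb2, Itga1, Itgav and Itgb5 values was not tested.

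**Figure D2:**
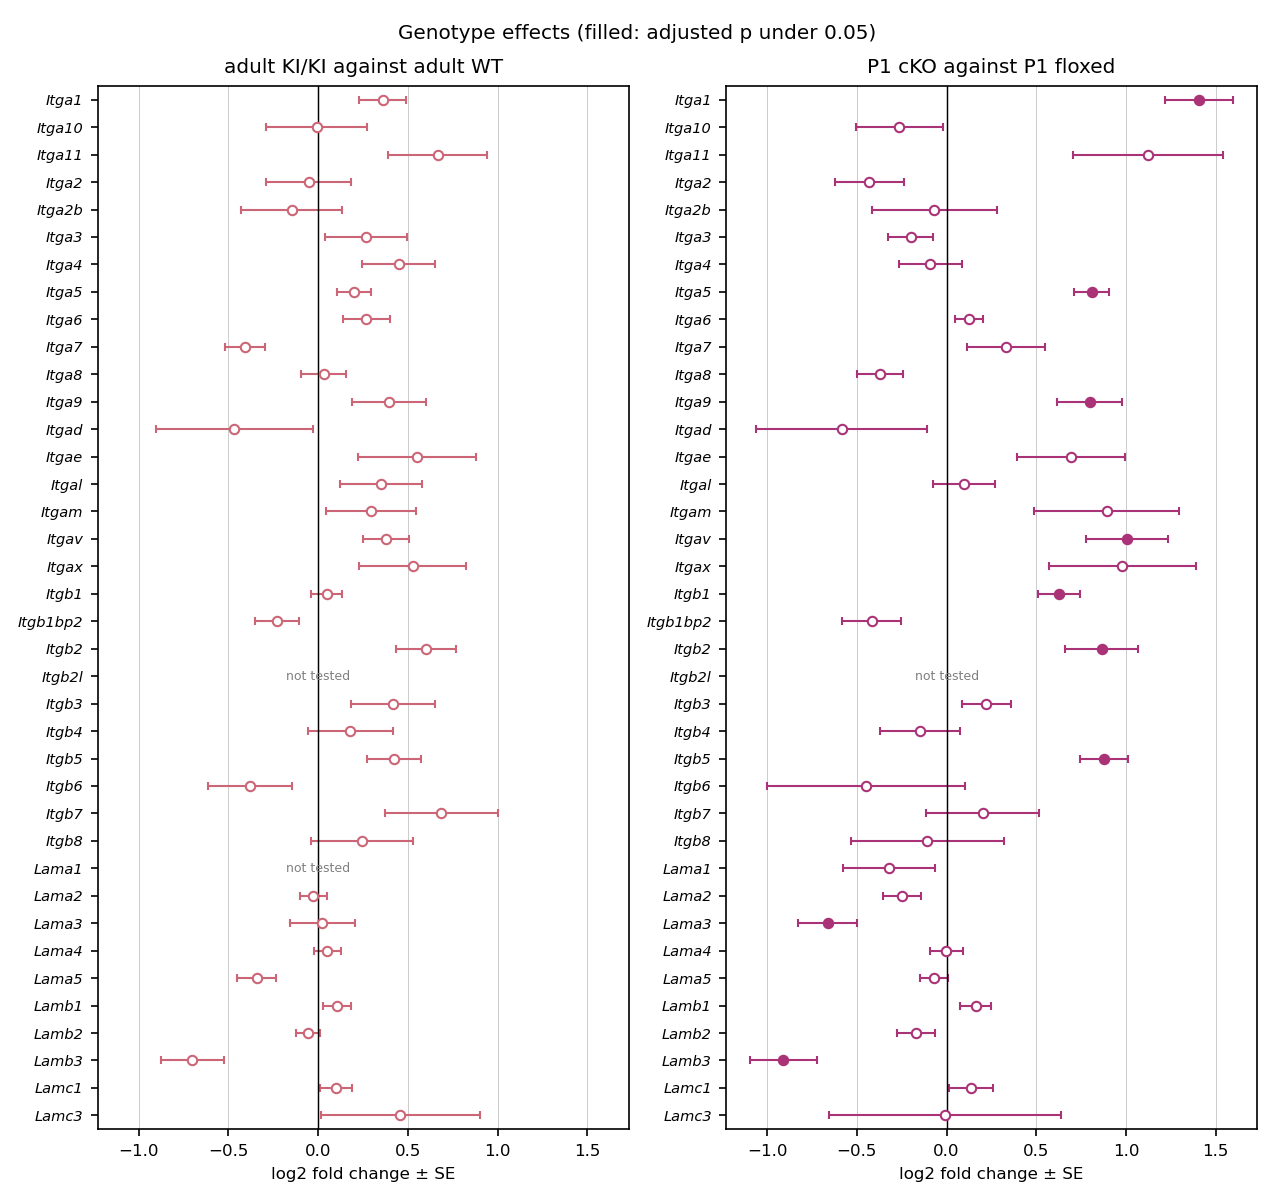
Log2 fold change of 38 members, with bars of 1 standard error from edgeR, in adult KI/KI against WT hearts (left) and P1 cKO against floxed hearts (right), 3 libraries a group. Itgb2l in both panels and Lama1 on the left were not tested and have no point. Filled points passed an adjusted p of 0.05, which 0 of those drawn did on the left and 9 on the right, led by Itga1 at 1.41 and Lamb3 at -0.91.

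Whether the genotype effect differed between the models was tested as the cKO effect minus the KI/KI effect in a fit of all 12 libraries. No member passed (0 of 38), where 2.43% of 15729 genes did. At an unadjusted p under 0.05 the difference was positive for 7 members and negative for 2, Lama3 and Itga8, against 9.95% and 10.1% of all genes. DESeq2 called 3 members, Itga1, Itga5 and Itgb1, against 9.13% of genes with an adjusted p. The sign says whether the cKO log2 fold change lay above or below that of KI/KI and not which was larger in size. In edgeR the difference was 1.05 ± 0.25 on the log2 scale for Itga1 (adjusted p = 0.0547), 0.62 ± 0.15 for Itga5 (adjusted p = 0.0519) and 0.59 ± 0.15 for Itgb1 (adjusted p = 0.0614). For Itga7, which lay lower in every KI/KI heart and overlapped between cKO and floxed hearts, it was 0.75 ± 0.28 (adjusted p = 0.161). Age, allele, the Cre transgene and the cells affected differ between the models together and cannot be told apart.

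The third comparison set the controls of the models side by side, adult WT against P1 floxed hearts. Here most members differed, as did most of all genes tested. Of 38 members tested 13 were higher in the adult and 15 lower, against 31.8% and 33.4% of all 15183 genes tested. With a fold above 2 there were 7 higher and 8 lower, against 13.4% and 13.9% of all genes. Without overlap 12 were higher and 16 lower, against 34.4% and 36.5%. The median log2 fold change was -0.21 over the members and -0.04 over all genes tested. The adult hearts differed from the P1 hearts also in line and in the floxed allele, so that age cannot be told apart from these. The same WT and floxed libraries serve as controls above, so the values here are not independent of those comparisons.

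The laminin-binding receptor subunits changed places. Itga7 was the clearest of all members, at 39.8, 37.9 and 39.6 CPM in P1 floxed and 313, 284 and 242 CPM in adult WT hearts, with wide space between them. The log2 fold change was 2.83 ± 0.10, 7.13-fold (adjusted p = 5.95e-07). Itga6, found on endothelial cells and on embryonic muscle, was 173 ± 12.4 CPM at P1 and 145 ± 18.0 in the adult and did not pass (adjusted p = 0.0612), while Itga3 was lower in the adult, at 22.4 ± 1.12 against 38.5 ± 3.94 CPM. Itga7 accordingly made up 16.7% ± 0.909 of the laminin-binding alpha transcripts per kilobase at P1 and 64.1% ± 4.48 in the adult, and Itga6 70.3% ± 2.53 and 31.8% ± 4.15 (exact permutation p = 0.1 each). The common partner Itgb1 was lower in the adult, at 887, 845 and 771 CPM against 1131, 1252 and 1231 (log2 -0.54 ± 0.08, adjusted p = 0.000724), and Itgb1bp2, or melusin, was higher, at 224, 223 and 191 against 114, 113 and 157 CPM (log2 0.73 ± 0.14, adjusted p = 0.00226).

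Their ligands changed places as well. Lamb2, the beta2 chain of mature muscle and synaptic laminins, read 251, 250 and 249 CPM at P1 and 647, 597 and 629 CPM in the adult (log2 1.32 ± 0.07, adjusted p = 2.52e-06). Lamb1, the beta1 chain of most embryonic laminins, went the other way, from 524, 535 and 545 CPM at P1 to 224, 204 and 220 CPM in the adult (log2 -1.31 ± 0.07, adjusted p = 3.11e-06). For each gene the 3 libraries of a group lay close together and the groups far apart. Lamb2 therefore made up 32.3% ± 0.525 of the beta chain transcripts per kilobase at P1 and 72.8% ± 0.190 in the adult. Among the alpha chains Lama4 was lower in the adult, at 209, 202 and 211 against 403, 390 and 441 CPM, and Lama5 higher, at 227, 231 and 248 against 115, 123 and 115 CPM. Lama2, the muscle chain, read 365, 321 and 312 CPM in the adult and 279, 232 and 282 at P1 (log2 0.33 ± 0.10, adjusted p = 0.0205), a call lost without WT 1 and without floxed 2. Lama4 was 64.1% ± 1.06 of alpha chain transcripts per kilobase at P1 and 38.4% ± 0.842 in the adult, Lama2 25.4% ± 1.54 and 37.9% ± 2.28, and Lama5 9.77% ± 0.954 and 23.1% ± 1.45 (exact permutation p = 0.1 each). Lama1 read 0.160, 0.0915 and 0.109 CPM in the adult and 0.884, 1.00 and 0.679 at P1 (log2 -2.81 ± 0.39, adjusted p = 0.000309), which rests on 3 to 5 counts per adult library.

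The gamma chain Lamc1 was lower in the adult, at 514, 493 and 473 CPM against 780, 787 and 925 (log2 -0.76 ± 0.09, adjusted p = 0.000178). Lamb3 was higher in the adult, at 22.5, 26.7 and 21.3 against 7.25, 10.3 and 8.64 CPM (2.68-fold, adjusted p = 7.11e-05). Lama3 was lower (adjusted p = 0.0248), a call lost without WT 2 and without floxed 1.

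**Figure D3:**
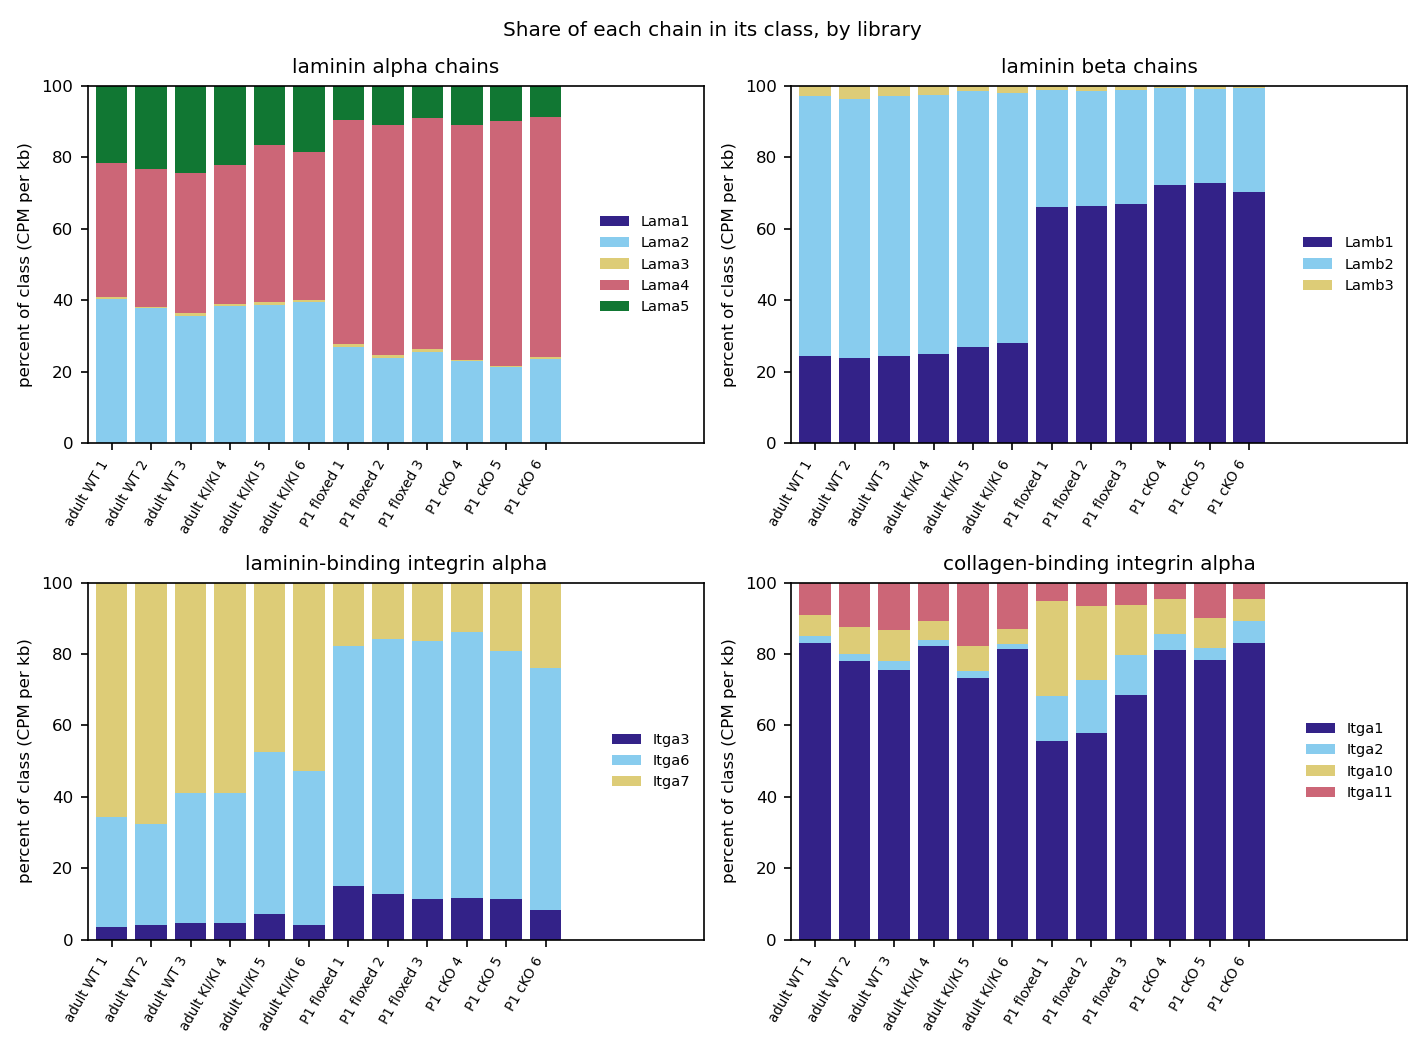
Share of each chain in its class in every library, in percent of the summed CPM per kilobase. Bars are single libraries stacked to 100. Lamb2 and Itga7 made up more of their classes in all 6 adult than in all 6 P1 libraries, and Itga1 more of the collagen-binding class in the 3 cKO than in the 3 floxed libraries.

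Itgb6, the epithelial partner of alphav that activates TGF-beta, showed the largest fold of all members. It read 43.9, 23.0 and 32.3 CPM in adult WT hearts and 1.95, 0.960 and 2.44 CPM at P1, and the P1 levels, above the floor, rested on 44 to 115 counts per library. The log2 fold change was 4.20 ± 0.35, 18.4-fold (adjusted p = 3.63e-05). WT 1 and WT 2, with summed lung epithelium markers of 0.513 and 0.549 CPM, held 43.9 and 23.0 CPM of it, against 32.3 CPM in WT 3, where those markers summed to 101 CPM. In floxed 1, floxed 2 and floxed 3 those markers summed to 30.75, 49.15 and 2.44 CPM. The part of lung tissue in the Itgb6 values was not tested. KI/KI hearts read 30.3, 22.5 and 23.0 CPM and cKO hearts 0.744, 0.751 and 2.56 CPM, overlapping their controls. Itgb5 was also higher in the adult (1.54-fold, adjusted p = 6.15e-05).

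Of the 4 RGD-binding alpha subunits 3 were called lower in the adult and 0 higher, where 33.4% and 31.8% of all genes were. Itga8 read 14.8, 14.4 and 17.6 CPM in the adult and 61.5, 61.0 and 54.7 CPM at P1 (log2 -1.92 ± 0.10, adjusted p = 2.79e-06). Itgb3, of platelets, osteoclasts and angiogenic vessels, read 4.27, 4.03 and 4.23 against 15.2, 16.0 and 13.3 CPM (log2 -1.83 ± 0.12, adjusted p = 7.54e-06), and its platelet partner Itga2b 1.89, 1.13 and 1.80 against 3.94, 4.54 and 2.67 CPM. The groups were separate in each. Itga5 was lower too, at 103 ± 4.34 against 165 ± 18.4 CPM (adjusted p = 0.000306), while Itgav did not pass (adjusted p = 0.0941). Of the collagen receptors Itga2, the epithelial and platelet one, read 1.35, 1.13 and 1.61 CPM in the adult and 6.05, 6.37 and 6.75 at P1 (log2 -2.22 ± 0.18, adjusted p = 1.83e-05), and Itga10, of cartilage, 2.85, 2.72 and 4.09 against 8.95, 6.35 and 5.96 CPM, a gene that shares 34.5% of its exon bases with the overlapping model Gm42957. Itga11 was higher in the adult, at 4.52, 4.51 and 6.08 against 1.77, 2.03 and 2.63 CPM (log2 1.23 ± 0.22, adjusted p = 0.00128), and Itga1 was higher with overlap (adjusted p = 0.0318), a call lost without WT 1 and without floxed 1 or floxed 2.

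Of the 7 leukocyte integrins tested 3 were called higher in the adult and 0 lower, where 31.8% and 33.4% of all genes were. Itgb2 read 6.96, 6.25 and 8.73 CPM in the adult against 3.54, 2.64 and 3.01 at P1 (log2 1.26 ± 0.19, adjusted p = 0.000508). Itgb7, of lymphocytes, read 0.642, 1.10 and 1.47 against 0.544, 0.458 and 0.318 CPM (adjusted p = 0.0162), a call lost without WT 3. Itgam read 9.40, 6.83 and 13.3 against 5.39, 6.35 and 4.14 CPM (adjusted p = 0.0175), a call lost without floxed 1 and without floxed 3. Of the alpha4 and alpha9 subunits, Itga4 was lower in the adult (7.47 ± 1.96 against 11.8 ± 1.03 CPM, adjusted p = 0.0148) and Itga9, at 156, 147 and 120 against 104, 111 and 147 CPM, overlapped. Of 7 macrophage markers 6 were higher in the adult, summing to 185 to 266 CPM against 94.5 to 109 at P1. Neutrophil markers went the other way, with 3 of 4 tested lower and 0 higher (2.23 to 3.11 against 9.30 to 18.05 CPM, all 7 markers). Endothelial markers were lower for 3 of 8 and higher for 1 (1197 to 1366 against 1186 to 1296 CPM). Of 8 cardiomyocyte markers 6 were higher (82170 to 91860 against 47460 to 55120 CPM), and all 6 cell-cycle genes were lower (29.8 to 59.0 against 280 to 393 CPM). Of 8 fibroblast markers 4 were lower and 1 higher (2041 to 2465 against 5144 to 5957 CPM), of 7 mural and smooth muscle markers 3 were lower and 2 higher (774 to 832 against 1478 to 1865 CPM), and of 6 epicardial and mesothelial markers 5 were lower (27.5 to 46.1 against 74.8 to 115 CPM). In each group 1 neutrophil marker was at 0, and none of the other lists named here had a marker at 0. The part of these markers in the integrin and laminin values was not tested.

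**Figure D4:**
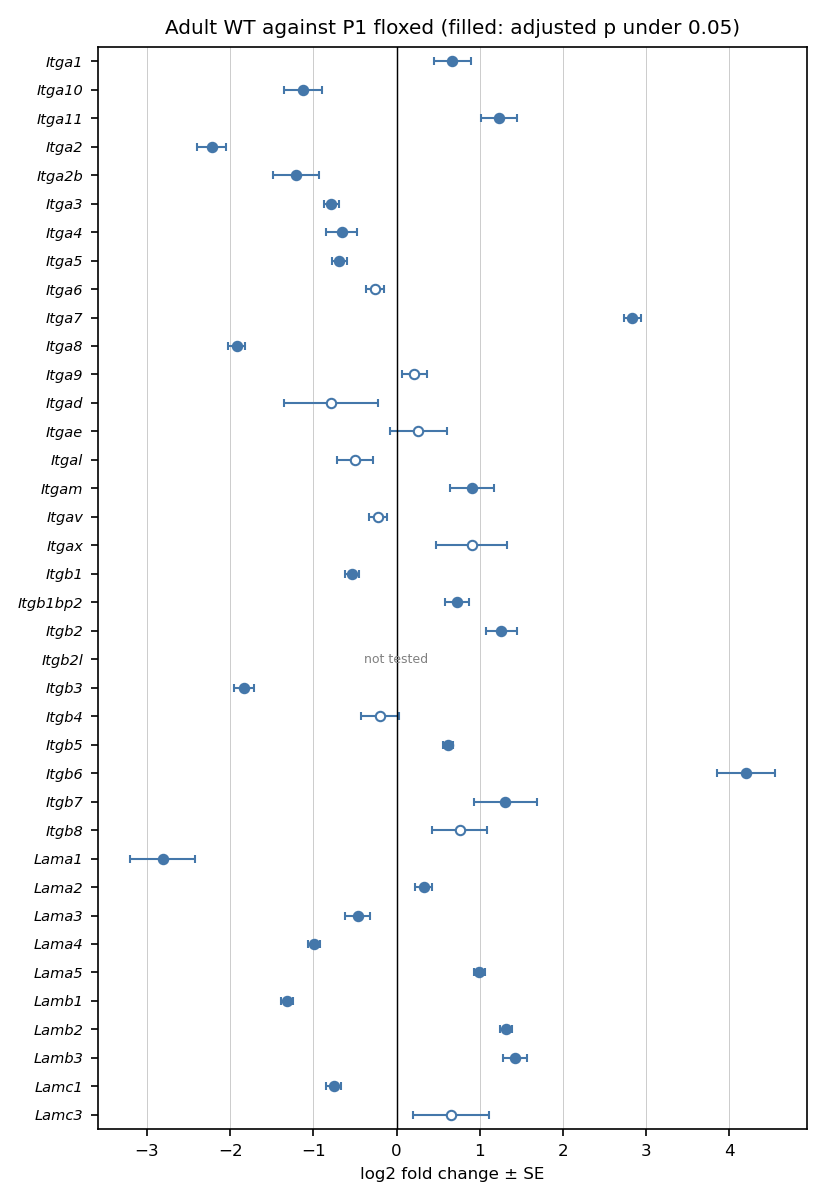
Log2 fold change of 38 members in adult WT against P1 floxed hearts, with bars of 1 standard error from edgeR, 3 libraries a group. Itgb2l was not tested and has no point. Filled points passed an adjusted p of 0.05, which 13 of those drawn did to the right, led by Itgb6 at 4.20 and Itga7 at 2.83, and 14 to the left, led by Lama1 at -2.81 and Itga2 at -2.22.

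The partners of these receptors, a list of 62 other adhesion and basement membrane genes of which 61 were tested, were counted in the same way. This list was chosen with earlier results of these data known, so the counts below do not test its genes as a set. In cKO hearts 19 were higher and 2 lower, by the call rule that took 9.32% and 7.57% of all genes, with a median log2 fold change of 0.26. The higher genes by fold were the matricellular ligands Cyr61 at 33.6 CPM in floxed and 259 in cKO hearts (log2 2.95 ± 0.29), Thbs1 (2.08 ± 0.42) and Tnc (1.62 ± 0.19), the actin crosslinker Actn1 (1.05 ± 0.18), fibronectin Fn1 at 1228 against 2303 CPM (0.91 ± 0.15) and talin Tln1 at 320 against 580 CPM (0.86 ± 0.12), which pulls integrins into their active state. In the cKO hearts Cyr61 read 320, 295 and 161 CPM and Thbs1 864, 839 and 282, with cKO 6 far below the other cKO hearts in both. The lower genes were Sgca, of the sarcoglycan complex (-0.63 ± 0.14), and the adaptor Lims1 (-0.31 ± 0.08). In KI/KI hearts 0 of 61 passed in edgeR, with 11 higher and 3 lower at an unadjusted p under 0.05 (8.92% and 7.28% of all genes). DESeq2 called 4 higher, Ptk2b, Col4a3, Tnc and Vcam1, and 0 lower (2.10% and 1.46% of all genes). KI/KI 5 stood far above the other KI/KI hearts for Col4a3, at 21.2, 63.0 and 28.65 CPM, and for Tnc, at 4.28, 10.95 and 5.725 CPM. The difference between the models passed for 2, Cyr61 (2.56 ± 0.34 on the log2 scale, adjusted p = 0.0115) and integrin-linked kinase Ilk (0.70 ± 0.15, adjusted p = 0.0357).

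Between the control hearts 23 of the 61 were higher in the adult and 25 lower, by the call rule that took 31.8% and 33.4% of all genes. The higher ones by fold were vitronectin Vtn at 1.74 CPM at P1 and 24.9 in the adult (log2 3.84 ± 0.17), the sarcoglycans Sgcd (3.41 ± 0.13) and Sgca (2.40 ± 0.10), the adaptor Lims2 (2.33 ± 0.15), the collagen IV chain Col4a4 (2.24 ± 0.18) and Itgbl1 (2.18 ± 0.16). The lower ones were the matrix proteins Tnc at 91.1 against 3.26 CPM (-4.81 ± 0.21), Postn at 1281 against 76.5 (-4.07 ± 0.10), Fn1 at 1228 against 169 (-2.86 ± 0.13), Thbs1 (-2.31 ± 0.13) and Npnt (-1.74 ± 0.26), and the endothelial ligand Vcam1 (-1.57 ± 0.09).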

How the data were processed

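Whole mouse hearts, 3 mice in each of 4 groups, were profiled as polyadenylated RNA. Per the labels and the study's methods, the authors trimmed single-end reads with Trim Galore, checked library quality with Bowtie2 2.3.4.3, aligned to mm10 with STAR 2.7.2b, sorted with SAMtools 1.9 and counted reads per gene with HTSeq. The strand setting is not given in the sources used here. The deposited table holds raw counts of 24062 genes, not normalized, with 1 column per library.

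Each comparison was fitted over its own 6 libraries with edgeR 4.0.16 in R 4.3.3 (default filter on low counts, TMM factors, robust quasi-likelihood test, Benjamini-Hochberg adjustment over all genes tested, threshold 0.05), and the difference between the models over all 12. The quasi-likelihood fit used edgeR's newer method, which is not the default of this version. It was chosen to match an earlier analysis of these data, after the values of both methods had been seen. DESeq2 1.42.0, the study's tool, and limma-voom (3.58.1) were alternatives. The test was tried on simulated counts. Standard errors are the log2 fold change over the root of the F statistic. Levels are CPM, per kilobase of exon in GENCODE vM21 where genes are compared (94.5% of symbols, all 39 members matched). Promoter windows are from RefSeq, GRCm38.p6. Every pair of libraries within a group differed by more than sampling noise.

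The members, gene lists and marker lists were chosen with earlier results of these data known. Any member may be named, except 1 that is not reported here although it is in the counts. Values in every library are given for the other members called with a fold above 2, for the 6 with the smallest p in each comparison and for the highest of each role, and up to 6 called genes per direction are named from the adhesion list, by fold.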

Additional observations from a re-analysis of the deposited data

How the results depend on the processing

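Every member called in cKO against floxed or in adult against P1 hearts kept its direction under each alternative that gave a value, but not every call held. In KI/KI hearts DESeq2 called 2 members lower, where edgeR called 0, and 4 genes of the adhesion list higher. In cKO hearts the Y-linked covariate left 0 lower members, and leaving out 1 library gave 0 to 9 higher and 0 to 3 lower members. A required fold above 2 left 3 higher and 0 lower members there, and 7 higher and 8 lower in adult against P1 hearts. The difference between the models, with 0 members called, had 3 under DESeq2, 1 with RLE size factors, 2 with at least 10 counts in every library and 0 to 3 with 1 library left out (2 without floxed 3, 1 without cKO 4 and 3 without cKO 6). The cause was not tested. The older quasi-likelihood fit, added after seeing the data, kept all 10 calls in cKO and all 28 in adult hearts. Over all genes in KI/KI hearts DESeq2 made 518 calls, edgeR 48 with all 12 libraries in one fit and 56 without KI/KI 4.

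WT and floxed hearts share the replicate numbers 1 to 3, and KI/KI and cKO hearts the numbers 4 to 6. The r of deviations between same-numbered libraries was -0.16, -0.25 and -0.43 in the first pair of groups and 0.090, 0.18 and 0.065 in the second, not above 0.1 in every pair, so the numbers were not taken to pair the samples. With the replicate block 12 members were higher and 15 lower in adult against P1 hearts, with Itgam lost, and 0 differed between the models.

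Leaving out 1 library turned the sign of some differences in chain share, given in percentage points. For KI/KI against WT the range was -0.177 to 2.10 for Lama2, -1.58 to 2.90 for Itga1 and -2.83 to 0.0764 for Itga5. For cKO against floxed it was -0.550 to 0.592 for Lama5, -1.78 to 1.59 for Itga6, -0.0907 to 4.91 for Itga7 and -1.47 to 1.20 for Itga11, which was -0.194 without division by length.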
